A study of Mus musculus with 12 samples.

Results

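The comparison described here set fear extinction (E) against fear conditioning (F) in the basolateral amygdala of the mouse, with 3 libraries in each group, chosen by their titles, of 12 libraries in the series. All animals were male C57BL/6J mice aged 10 weeks, and each library came from 1 mouse. F mice received tones paired with foot shock and were sampled 1 h after conditioning. E mice received the same conditioning, were given tones without shock in another context over 2 extinction sessions on the next day, and were sampled 1 h after the last of them. Shock and tone were therefore common to both groups, and the extinction training, the day of sampling and the time since the shock cannot be told apart. The remaining 6 libraries, 3 of control mice that went through conditioning without shock and 3 of retrieval-extinction (RE) mice that heard a reminder tone before extinction, entered the fit for the shared spread and are given only as a reference. Tissue was cut from coronal slices and held most of the basolateral part, and no cells were sorted. Nothing in the labels tells a litter or a batch, and p-values measure the spread between these animals.

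The basolateral amygdala is where the tone and the shock converge during fear learning. Its principal neurons are glutamatergic and related to those of cortex, it holds inhibitory interneurons, and it is bordered by the central amygdala, the striatum and fibre tracts. Extinction is a second learning that suppresses the fear response rather than erasing the first memory, and it too requires this region. Neurons that have just fired transcribe immediate early genes within minutes, first transcription factors of the Fos, Egr and Nr4a families and effectors such as Arc, and then a later wave that includes growth factors and synaptic proteins.

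Levels of mRNA and lncRNA are given in FPKM (fragments counted per kilobase of a transcript, for 1000000 fragments mapped), always in the order of libraries 1, 2 and 3 of a group. A log2 difference is E minus F on the log2(FPKM + 0.1) scale with its SE, which understates the change of low genes. An adjusted p is that of limma with Benjamini-Hochberg adjustment over all features of the class, and a feature passed at under 0.05. Depth was 11001929 to 18921682 mRNA fragments per library in F and 7653914 to 15949994 in E, with E 1 the shallowest library of the series. Along the leading principal component of lncRNA levels (18.4% of the variance) 4 libraries, 1 from each group and among them F 1 and E 2, stood apart at 46.4 to 68.1 from the other 8 at -31 to -21.4, so E and F are balanced for this split. Defining markers of the tissue were present in every library of both groups, such as Slc17a7, the vesicular glutamate transporter of cortical-type neurons, at 388, 288 and 253 FPKM in F and 162, 279.8 and 207 in E, and Cck, the cholecystokinin precursor, at 198, 223 and 169 FPKM in F and 73.8, 66.6 and 129 in E. Markers of neighbouring regions were present as well, as given below, and in bulk tissue fewer cells of a type and less RNA per cell cannot be told apart.

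Of 13517 mRNAs tested, 6 rose (0.0444%) and 5 fell (0.037%) in E against F. Genes higher in E included Gad2, an enzyme that makes the inhibitory transmitter GABA, Lhx8, a homeodomain factor of cholinergic neurons, and the hormone gene Prl. Genes lower in E included Neurod2, a transcription factor of glutamatergic neurons, and Nptx1, a pentraxin that gathers AMPA receptors at excitatory synapses. At the thresholds of the study (unadjusted p under 0.05 and a log2 difference of at least 1 in size) 135 mRNAs were higher (0.999%) and 67 lower (0.496%), against 97 and 95 with quantile normalization. At an unadjusted p under 0.05 alone there were 847 higher (6.27%) and 612 lower (4.53%), the shares that each list's count at this p is to be read against. All 3 E libraries lay above all 3 F libraries for 1536 mRNAs (11.4%) and below them for 1020 (7.55%). The median difference over all tested mRNAs was 0.02. The number past the adjusted test moved with the libraries: 0 passed without E 1, E 2, F 1 or F 3, 1 that was not among the 11 passed without F 2, and 34 passed without E 3, 9 of the 11 among them.

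Gad2 (chr2:22622205-22693874, mm10) was at 46.4, 44.7 and 48.4 FPKM in F and 84.8, 76.7 and 73.7 in E, and control lay between the groups at 63.1 ± 5.86 (SD, n = 3). RE was at 43.6 ± 3.42 FPKM, near F and below E. Every E library was above every F library, and the F libraries differed little among themselves. The difference was 0.75 ± 0.10 (adjusted p = 0.0373). Klhl13, an adaptor of a ubiquitin ligase (chrX:23219271-23365082), was at 27.2, 24.9 and 27.8 FPKM in F and 47.7, 42.5 and 40.8 in E, with a difference of 0.71 ± 0.11 (adjusted p = 0.0469). Sncg, which encodes gamma-synuclein (chr14:34370274-34374789), was at 1.67, 1.44 and 1.71 FPKM in F and 6.41, 5.39 and 4.60 in E with a difference of 1.70 ± 0.24 (adjusted p = 0.0469). Lhx8 (chr3:154306294-154330659) was lowest in F 1, at 0.249, 1.24 and 1.14 FPKM in F and 6.82, 6.72 and 5.61 in E, while control was at 3.17 ± 1.38 FPKM and RE at 1.29 ± 0.0933. Its difference was 2.95 ± 0.45 (adjusted p = 0.0469). E130309F12Rik, which the annotation now names Plppr1, a phospholipid phosphatase-related membrane protein of neurons (chr4:49059273-49340259), was at 4.54, 4.55 and 4.81 FPKM in F and 8.36, 9.40 and 7.75 in E (0.86 ± 0.14, adjusted p = 0.0469).

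Of the 5 genes that fell, Neurod2 (chr11:98325415-98329648) was at 16.0, 17.3 and 13.6 FPKM in F and 7.47, 8.44 and 8.87 in E, a difference of -0.91 ± 0.14 (adjusted p = 0.0469), and control was at 10.2 ± 1.73 FPKM. Nptx1 (chr11:119538719-119547753) was at 71.6, 69.1 and 66.1 FPKM in F and 38.9, 49.4 and 44.6 in E (-0.64 ± 0.10, adjusted p = 0.0469), with control at 48.6 ± 2.18. For Nptx1 the F libraries lay above all others, RE was at 53.9 ± 4.37 FPKM and E overlapped control. For Neurod2 every E library lay below every control library, and RE, at 13.7 ± 0.884 FPKM, overlapped F. Sstr2, a receptor for the inhibitory peptide somatostatin (chr11:113619342-113626028), was at 12.7, 13.2 and 11.4 FPKM in F and 5.94, 5.97 and 6.77 in E, and its control level of 8.80 ± 0.650 FPKM lay between the groups (-0.98 ± 0.13, adjusted p = 0.0373). Galnt9, an enzyme that starts O-linked glycan chains (chr5:110544355-110621380), was at 22.7, 22.9 and 22.3 FPKM in F and 10.6, 10.0 and 14.3 in E (-0.97 ± 0.14, adjusted p = 0.0469). Car4, a membrane-bound carbonic anhydrase (chr11:84957786-84966044), was at 18.3, 16.7 and 17.2 FPKM in F and 10.1, 9.61 and 11.7 in E (-0.73 ± 0.11, adjusted p = 0.0469). In none of the 11 genes did the groups overlap.

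**Figure D1:**
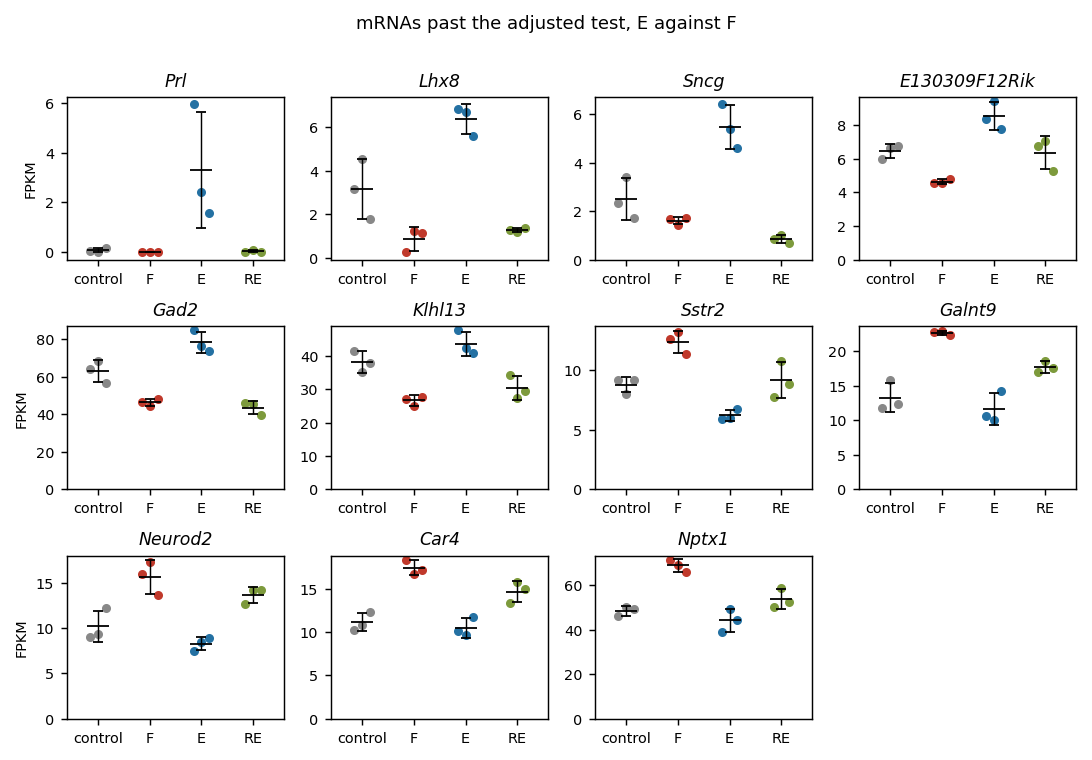
Level in FPKM (vertical axes) of the 11 mRNAs past the adjusted test in each library of the 4 groups. Points are libraries, the long bar is the group mean and the whiskers are 1 SD. E and F points do not overlap in any panel, and Gad2 runs from 44.7 to 48.4 in F and from 73.7 to 84.8 in E.

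Of the other ways to test the same values, some gave more calls and some fewer. edgeR's quasi-likelihood test on fragments recovered from the deposited values called 43 mRNAs higher and 47 lower in E, and limma with a term that marks the 4 distinct libraries (those apart on the leading component) called 57 and 72. All 11 genes passed in both, and 60 genes passed in both tests, 26 higher and 34 lower, with the same sign. Members of the cell type lists among these 60 were Gad2 (higher) and Cck, Dkk3, Fezf2, Neurod2 and Nptx1 (lower). With the 8 other libraries alone, or with replicate number as a block, 0 mRNAs passed.

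Genes that met the thresholds of the study without passing the adjusted test filled the remaining places of the naming rule. On the higher side these were Serpinb1a, an inhibitor of neutrophil serine proteases, at 0.863, 0.838 and 1.14 FPKM in F against 2.60, 2.96 and 2.94 in E (1.49 ± 0.24, adjusted p = 0.0511). Gpr149, a receptor with no known ligand, was at 1.23, 1.10 and 1.46 FPKM in F against 5.09, 6.66 and 4.92 in E (adjusted p = 0.0516). The neural factor Sox1 and the Rac regulator Chn2 had differences of 1.02 ± 0.18 and 1.02 ± 0.18, both with an adjusted p of 0.0652. On the lower side Fezf2, a zinc finger factor of deep cortical and amygdala projection neurons, was at 5.29, 4.09 and 3.72 FPKM in F against 1.07, 1.25 and 2.20 in E, with RE at 4.47 ± 0.355. Hkdc1, a hexokinase-like enzyme, had a difference of -2.71 ± 0.46, Myl4, an embryonic myosin light chain, of -2.27 ± 0.40, Tmem215, a membrane protein, of -1.18 ± 0.22 and Cck of -1.18 ± 0.22. All 5 had an adjusted p of 0.0652.

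Prl encodes prolactin, a peptide hormone of the anterior pituitary gland (chr13:27057570-27065205). It was at 0 in every F library and at 5.96, 2.41 and 1.56 FPKM in E, which are 42, 33 and 18 recovered fragments, 93 in all. Against a floor of 3 fragments over the F group this is at least 35.8-fold higher in E per 1000000 fragments, and control held 1, 0 and 2 fragments. The fitted difference of 4.87 ± 0.58 (adjusted p = 0.0297) depends on the pseudocount. Gh, growth hormone, another product of that gland, held 194, 146 and 50 fragments in E and 17, 0 and 4 in F, or 1.08, 0 and 0.421 FPKM in F and 28.5, 10.9 and 4.53 in E, and did not pass (4.85 ± 1.10, adjusted p = 0.117). Both hormones were highest in E 1 and lowest in E 3, and the order of the E libraries was the same for both. Pomc, the precursor of corticotropin, was at 2.37, 0.471 and 0.437 FPKM in F and 1.59, 1.55 and 0.225 in E and the groups overlapped, and the genes of the other anterior pituitary hormones (Tshb, Cga, Lhb and Fshb) were below the minimum level tested. Whether pituitary RNA reached the E libraries in dissection was not tested.

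Immediate early genes were lower in E in most members. Of 24 transcription factors of this class tested, 23 lay lower in E and 1 higher, with a median of -0.62. At an unadjusted p under 0.05, 12 were lower and 0 higher, where 4.53% of all mRNAs were lower. All E libraries lay below all F libraries for 9 of them, where the share over all mRNAs was 7.55%, and 0 members passed the adjusted test. Leaving out each library in turn kept the median between -0.68 and -0.51. Summed over the list, the level was 358 to 430.2 FPKM in F and 225 to 298 in E, and control lay at 207 to 323. RE lay at 248 to 278, within the range of E.

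Nr4a3, an orphan nuclear receptor induced by activity, had the smallest p of the list, at 18.3, 12.4 and 11.4 FPKM in F and 6.67, 7.93 and 4.89 in E (-1.09 ± 0.20, adjusted p = 0.0652). It passed when the 4 distinct libraries had a term of their own. Control was at 8.48 ± 1.12 FPKM, above the mean of E. Fosb was at 7.75, 5.73 and 5.97 FPKM in F and 3.71, 3.97 and 3.11 in E (-0.83 ± 0.21, adjusted p = 0.140) and control at 3.10 ± 0.797. Egr3, a zinc finger factor downstream of neurotrophin signalling, was at 39.2, 34.2 and 41.9 FPKM in F and 24.2, 23.1 and 23.7 in E (-0.69 ± 0.20, adjusted p = 0.201), without overlap. Egr1, the most abundant member, was at 70.9, 75.5 and 91.0 FPKM in F and 58.8, 65.0 and 40.2 in E (-0.55 ± 0.31, adjusted p = 0.582), and its groups did not overlap either. Per1, a clock gene that activity and glucocorticoids also induce, was at 37.2, 29.7 and 31.4 FPKM in F and 22.5, 28.8 and 19.2 in E (-0.49 ± 0.18, adjusted p = 0.333).

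Fos and Junb varied more within F. Fos, the prototype of the class, was at 35.3, 26.4 and 18.6 FPKM in F and 13.4, 20.6 and 14.1 in E, and F 3 lay below E 2 (-0.72 ± 0.40, adjusted p = 0.572). Junb, a partner of Fos, was at 32.4, 20.7 and 13.5 FPKM in F and 9.46, 14.1 and 7.62 in E, with F 3 again below the highest E library (-1.04 ± 0.31, adjusted p = 0.208). In both genes F 1 was the highest library and F 3 the lowest of its group. Npas4, which calcium entry induces in neurons, was at 2.92, 5.10 and 2.97 FPKM in F and 4.11, 1.97 and 1.88 in E, and the groups overlapped. The stress-responsive factor Atf3 had the largest difference of the list, -1.51 ± 0.39 (adjusted p = 0.151).

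Of 20 immediate early effectors and inhibitors of signalling, 15 lay lower in E and 5 higher (median -0.35, and -0.20 without F 1), with 7 lower and 0 higher at an unadjusted p under 0.05, where 4.53% of all mRNAs were lower and 6.27% higher. Arc, which regulates receptor trafficking at synapses, was at 57.9, 54.6 and 48.0 FPKM in F and 23.5, 29.6 and 16.5 in E (-1.24 ± 0.30, adjusted p = 0.125). Every F library was above every E library, and E and control (25.9 ± 11.7 FPKM) lay at the same level within their spread. Dusp1, a phosphatase that ends MAP kinase signalling, was at 12.3, 11.9 and 9.87 FPKM in F and 6.81, 8.37 and 6.88 in E (-0.62 ± 0.17, adjusted p = 0.185), and Gadd45b, a stress-response and DNA demethylation factor, differed by -0.90 ± 0.28 (adjusted p = 0.226). Homer1, a scaffold of excitatory synapses whose short form is induced by activity, was at 82.8, 103 and 139 FPKM in F and 85.2, 75.5 and 83.7 in E and its groups overlapped. The kinase pathway inhibitor Spry2 differed by -0.11 ± 0.14. None of the effectors passed the adjusted test. Summed over the list, the level was 271 to 294 FPKM in F and 187 to 215 in E.

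**Figure D2:**
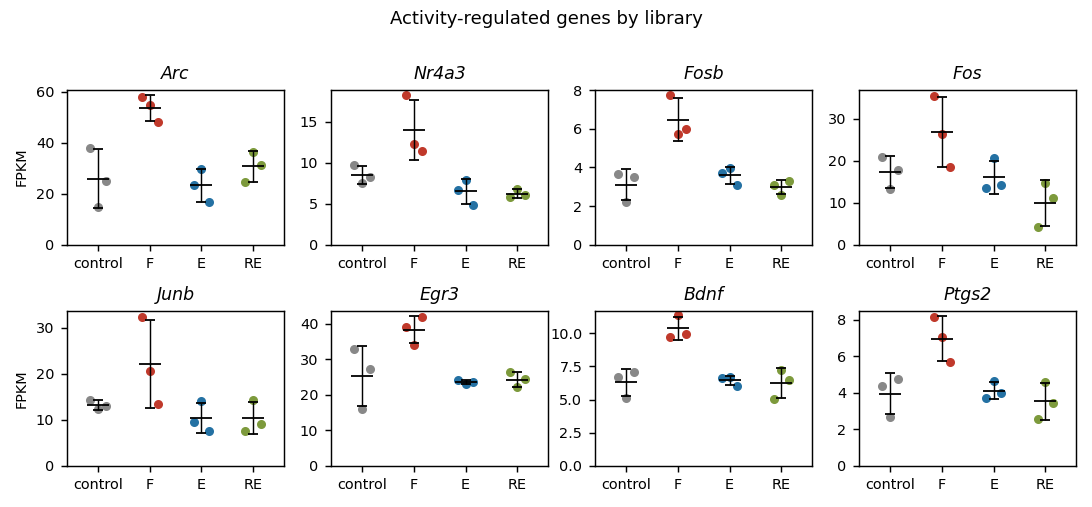
Level in FPKM (vertical axes) of 8 activity-regulated genes in each library of control, F, E and RE. Points are libraries, the long bar is the mean and the whiskers are 1 SD. For Arc, Nr4a3, Fosb, Egr3, Bdnf and Ptgs2 all F points lie above all E points, and for Fos and Junb the lowest F point lies below the highest E point.

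Many immediate early genes carry sites for CREB, a factor that calcium and cyclic AMP signals activate, and the sequence letters of their promoters were read for this reason. In RefSeq promoters (GRCm38.p6, 250 bases before to 50 after the start) the core TGACG or CGTCA was found, on either strand, in 16 of 21 matched immediate early transcription factors (76.2%), 8 of 16 matched effectors (50.0%) and 9 of 16 matched delayed genes (56.2%). Of the promoters of all 27025 genes, 23.0% held it. The full palindrome TGACGTCA, which contains the core on both strands, was in 5 of 37 matched immediate early genes (13.5%) and in 2.03% of all promoters. Nr4a3 and Dusp1 are shown since their groups did not overlap and their promoters hold several cores, marked in capitals. The Nr4a3 promoter (chr4:48045055-48045354, plus strand) holds 4 cores and no palindrome. The Dusp1 promoter (chr17:26508423-26508722, minus strand) holds 1 palindrome and 3 cores, since the palindrome counts as a core on each strand. A match is a match of letters only.
Nr4a3: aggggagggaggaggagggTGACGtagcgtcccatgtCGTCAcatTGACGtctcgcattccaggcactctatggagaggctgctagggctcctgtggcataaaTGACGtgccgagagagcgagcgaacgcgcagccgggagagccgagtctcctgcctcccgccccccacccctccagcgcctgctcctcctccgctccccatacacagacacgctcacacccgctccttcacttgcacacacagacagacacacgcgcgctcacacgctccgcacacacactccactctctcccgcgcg
Dusp1: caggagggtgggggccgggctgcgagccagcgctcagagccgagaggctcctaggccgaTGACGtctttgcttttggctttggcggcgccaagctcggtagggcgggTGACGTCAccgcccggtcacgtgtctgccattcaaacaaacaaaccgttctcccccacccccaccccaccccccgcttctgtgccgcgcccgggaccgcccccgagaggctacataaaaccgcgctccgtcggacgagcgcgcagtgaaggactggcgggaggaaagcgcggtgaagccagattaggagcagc

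The later wave of activity genes leaned the same way. Of 23 delayed activity genes tested, 17 lay lower in E and 6 higher (median -0.26), with 8 lower and 0 higher at an unadjusted p under 0.05. Nptx1, given above, was the member past the adjusted test. Bdnf, a neurotrophin that strengthens excitatory synapses, was at 9.75, 11.4 and 9.99 FPKM in F and 6.63, 6.67 and 6.04 in E (-0.68 ± 0.16, adjusted p = 0.123), and control was at 6.30 ± 1.04 FPKM. Nptx2, a pentraxin induced by activity, was at 28.7, 29.6 and 27.7 FPKM in F and 18.7, 20.2 and 16.3 in E (-0.64 ± 0.19, adjusted p = 0.196). Ptgs2, the inducible cyclooxygenase, was at 8.15, 7.04 and 5.69 FPKM in F and 3.71, 4.62 and 3.97 in E (-0.74 ± 0.25, adjusted p = 0.277). For these 3 genes all F libraries lay above all E libraries, and the E libraries lay within the range of control or close to it.

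Markers of glutamatergic neurons were lower in E as well. All 14 pyramidal neuron markers tested lay lower in E (median -0.70, between -0.76 and -0.63 with each library left out), 12 of them at an unadjusted p under 0.05, and 2, Neurod2 and Nptx1, passed the adjusted test. Summed over the list, the level was 1740.0 to 1855 FPKM in F and 1108 to 1360.0 in E, without overlap, and 1255 to 1526 in control. In RE the sum was 1697 to 1832, which overlapped F and lay above E. Camk2a, a kinase of excitatory synapses, was at 696, 669 and 622 FPKM in F and 431, 522 and 509.6 in E (-0.45 ± 0.11, adjusted p = 0.145). Emx1, a homeodomain factor of dorsal forebrain neurons, was at 5.22, 4.86 and 4.55 FPKM in F and 2.02, 3.00 and 2.37 in E (-0.97 ± 0.17, adjusted p = 0.0652). Slc17a7, given above, overlapped, since E 2 lay above F 3. Such neurons transcribe the immediate early genes, and the part of the lower pyramidal markers (median -0.70) in the lower immediate early genes (median -0.62) was not tested.

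Markers of the principal neurons of the basolateral amygdala itself lay the same way. All 11 tested lay lower in E (median -0.76), 9 of them at an unadjusted p under 0.05, and 0 passed the adjusted test. Dkk3, a secreted protein of the Dickkopf family, was at 34.1, 36.0 and 34.0 FPKM in F and 14.2, 17.2 and 26.8 in E (-0.89 ± 0.18, adjusted p = 0.0843). Rspo2, a secreted activator of Wnt signalling that marks neurons of the basal nucleus, was at 3.86, 4.43 and 2.90 FPKM in F and 1.02, 0.945 and 2.66 in E (-1.35 ± 0.34, adjusted p = 0.145). In Cck, Dkk3 and Rspo2 the third E library was nearest to F and the other E libraries lay well below it. Mef2c, an activity-regulated factor of excitatory neurons, was at 99.2, 116 and 109 FPKM in F and 70.6, 75.8 and 92.6 in E (-0.44 ± 0.14, adjusted p = 0.218). The list's summed level was 676 to 849 FPKM in F and 398 to 550.1 in E, and 509 to 583 in control, so F lay above control and E overlapped it. RE, at 589 to 816, overlapped F and lay above E.

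Inhibitory neuron markers did not lie on 1 side. Of 19 GABAergic markers tested, 13 lay higher in E and 6 lower (median 0.26, 0.16 without E 2 and 0.17 without F 3 or in the 8 other libraries alone), with 5 higher (background 6.27%) and 2 lower (4.53%) at an unadjusted p under 0.05, and Gad2 alone passed the adjusted test. Gad1, the other GABA-synthesising enzyme, was at 82.6, 75.7 and 81.6 FPKM in F and 114, 128 and 109 in E (0.55 ± 0.12, adjusted p = 0.117). Slc32a1, which loads GABA into vesicles, was at 32.1, 17.6 and 23.4 FPKM in F and 34.5, 53.5 and 33.1 in E (0.73 ± 0.27, adjusted p = 0.320). Lhx6, a factor of interneurons born in the medial ganglionic eminence, differed by 0.60 ± 0.16 (adjusted p = 0.169). Vip, a peptide of interneurons that inhibit other interneurons, lay lower, at 14.1, 16.6 and 13.4 FPKM in F and 6.07, 6.95 and 12.7 in E (-0.84 ± 0.26, adjusted p = 0.219), as did Dlx1 (-0.73 ± 0.29), a homeodomain factor of interneurons. The list's summed level was 562 to 631 FPKM in F and 638 to 682 in E, and 567 to 580 in RE. Control, at 632 to 744 FPKM, lay above F and overlapped E.

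GABAergic neurons also make up the regions that border the dissection, and most markers listed for these regions were higher in E. Of 10 central amygdala markers tested, 8 lay higher (median 0.84), 5 of them at an unadjusted p under 0.05, and 0 passed the adjusted test. The median was 0.61 with edgeR on recovered fragments and 0.68 in the 8 other libraries alone. Tac1, the precursor of substance P, was at 14.6, 19.7 and 35.6 FPKM in F and 63.5, 75.7 and 72.4 in E (1.69 ± 0.35, adjusted p = 0.0843). Isl1, a homeodomain factor of striatal and cholinergic neurons, was at 0.748, 1.11 and 1.82 FPKM in F and 6.51, 4.41 and 4.68 in E (2.06 ± 0.41, adjusted p = 0.0843). Penk, the enkephalin precursor, was at 163, 164 and 279 FPKM in F and 394, 459.6 and 304 in E (0.96 ± 0.42, adjusted p = 0.426), and Pdyn, the dynorphin precursor, at 8.46, 11.8 and 14.7 FPKM in F and 21.3, 27.7 and 20.7 in E (1.01 ± 0.28, adjusted p = 0.185). Nts, the neurotensin precursor, was at 5.44, 4.13 and 4.16 FPKM in F and 11.9, 10.8 and 9.96 in E (1.24 ± 0.43, adjusted p = 0.293). Prkcd, a kinase that marks neurons of the lateral central nucleus, was at 6.37, 4.77 and 4.96 FPKM in F and 4.18, 4.32 and 4.93 in E, where the groups overlapped. The summed level was 224 to 353 FPKM in F and 433 to 601 in E and 208 to 590.5 in control, a range that spans both groups. RE, at 254 to 354, overlapped F and lay below E.

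All 19 markers of striatal spiny neurons tested lay higher in E (median 1.11), 7 at an unadjusted p under 0.05 and 0 past the adjusted test. The E libraries were close to one another and the F libraries were not. Pde10a, a phosphodiesterase of these neurons, was at 30.3, 54.9 and 141 FPKM in F and 152, 151 and 133 in E (1.23 ± 0.69, adjusted p = 0.581), and Ppp1r1b, the dopamine-regulated phosphoprotein DARPP-32, at 80.1, 126 and 243 FPKM in F and 259, 304 and 235 in E (0.97 ± 0.55, adjusted p = 0.589). In both of them F 1 was the lowest library and F 3 the highest of its group, and F 3 reached the E range. The median was 0.68 without F 1 and 0.65 in the 8 other libraries alone. The summed level was 371 to 964 FPKM in F and 1034 to 1259 in E, without overlap, and 369 to 1414 in control. RE ran from 575 to 1648 and overlapped both groups. The part of tissue from the striatum and central amygdala in the higher Gad2 and in the lower glutamatergic markers was not tested.

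**Figure D3:**
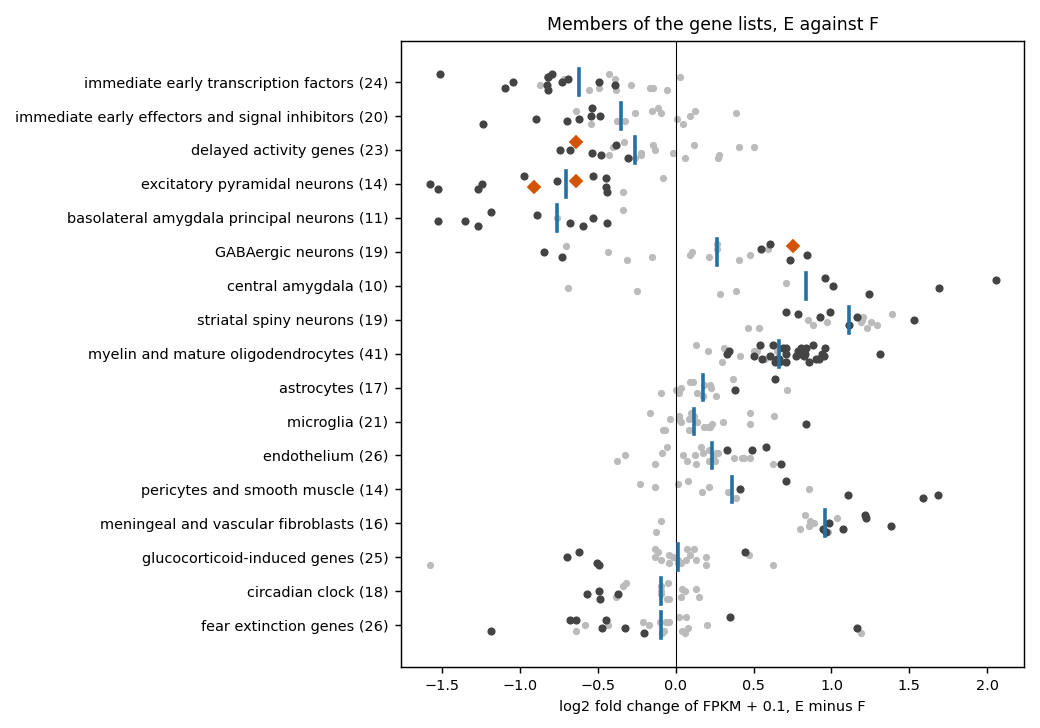
Log2 difference, E minus F, of FPKM + 0.1 (horizontal axis) for every tested member of 17 gene lists, with the number of members in brackets. Grey points had an unadjusted p of at least 0.05, black points were under 0.05, orange diamonds passed the adjusted test, and the blue bar is the list's median. All pyramidal and basolateral members lie left of 0, and all striatal and myelin members lie right of it.

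Genes of myelin, the insulating sheath that oligodendrocytes wrap around axons, were higher in E without exception. Of 41 tested, 41 lay higher (median 0.66, between 0.62 and 0.76 with each library left out), 30 of them at an unadjusted p under 0.05, and all E libraries lay above all F libraries for 31, where 11.4% of all mRNAs did so. None passed the adjusted test. Summed over the list, the level was 1044 to 1328 FPKM in F and 1710.0 to 1848 in E, without overlap, and 1496 to 1922 in control, so that every F library lay below every E and control library. RE ran from 1253 to 2744 and overlapped F. Mbp, the basic protein that compacts the sheath, was at 354, 388 and 485 FPKM in F and 676, 648 and 603 in E (0.66 ± 0.27, adjusted p = 0.391). Apod, a lipid carrier, was at 55.3, 57.7 and 51.7 FPKM in F and 102, 84.1 and 113 in E (0.85 ± 0.24, adjusted p = 0.189). The largest difference of the list was that of Gjb1, a gap junction protein of oligodendrocytes, at 2.19, 2.07 and 2.31 FPKM in F and 5.24, 6.81 and 4.87 in E (1.31 ± 0.35, adjusted p = 0.165).

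Myelin and mature oligodendrocyte genes differed from the precursor markers of these cells in direction counts. Of 11 precursor markers tested, 7 lay higher and 4 lower (median 0.03), and Pdgfra, the receptor that defines these cells, differed by 0.03 ± 0.21 (adjusted p = 0.979). The hub genes that the study picked for F against E and RE were 9 myelin genes and Fos, a list chosen on these samples and so not independent evidence of its direction. All 9 myelin genes of it lay higher in E (the median of the 10 was 0.71) and Fos lay lower. Mag, an adhesion protein between axon and myelin, was at 17.9, 19.2 and 24.1 FPKM in F and 32.2, 37.3 and 30.2 in E (0.71 ± 0.21, adjusted p = 0.196), and Opalin, a membrane protein of mature oligodendrocytes, differed by 0.80 ± 0.24 (adjusted p = 0.209). Fibre tracts border the basolateral amygdala, and their part in the higher myelin genes was not tested.

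**Figure D4:**
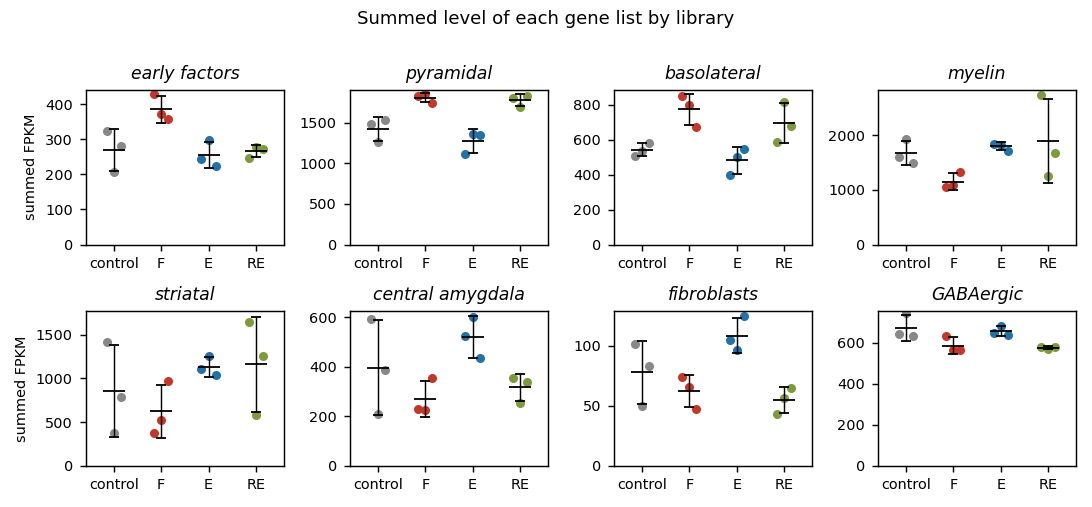
Summed FPKM (vertical axes, from 0) of 8 gene lists in each library of the 4 groups. Points are libraries, the long bar is the mean and the whiskers are 1 SD. The pyramidal, basolateral and early factor sums are higher in every F library than in every E library, and the myelin, striatal, central amygdala, fibroblast and GABAergic sums are lower in every F library than in every E library.

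Other glial cells differed less. Of 17 astrocyte markers, 16 lay higher in E with a median of 0.18 (0.11 without F 3), and 2 had an unadjusted p under 0.05. Gfap, the filament protein of astrocytes, was at 47.1, 41.0 and 22.1 FPKM in F and 51.5, 48.1 and 65.3 in E (0.64 ± 0.24, adjusted p = 0.358), with F 3 the lowest library, and Slc1a2, the main glutamate transporter, differed by -0.09 ± 0.11. Of 21 microglia markers 17 lay higher (median 0.12, 0.21 without E 3 and 0.19 without E 1) and 1 had an unadjusted p under 0.05.

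Markers of the vessel wall and its connective tissue were higher in E. Of 14 pericyte and smooth muscle markers, 12 lay higher (median 0.36), 5 of them at an unadjusted p under 0.05. The median was 0.27 without E 2, 0.47 without F 1 and 0.27 with a pseudocount of 1, and 9 lay higher in the 8 other libraries alone. Their summed level was 63.2 to 69.2 FPKM in F and 94.8 to 96.2 in E, with control at 50.3 to 67.0 and RE at 47.8 to 56.5. The contractile genes led this list. Acta2, smooth muscle actin, was at 4.71, 2.68 and 2.76 FPKM in F and 11.7, 10.8 and 9.75 in E (1.68 ± 0.32, adjusted p = 0.0726) and at 4.52 ± 2.43 FPKM in control. The RE libraries were at 1.59, 1.74 and 2.12 FPKM, below every F library. Tagln, an actin-binding protein of smooth muscle, was at 2.13, 2.20 and 1.93 FPKM in F and 6.40, 5.70 and 7.37 in E (1.59 ± 0.34, adjusted p = 0.104). Rgs5, a regulator of G-protein signalling in pericytes, was closer between the groups, at 19.8, 23.4 and 21.5 FPKM in F and 24.3, 26.7 and 24.0 in E (0.22 ± 0.11, adjusted p = 0.543).

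Of 16 fibroblast markers of meninges and vessels, 14 lay higher (median 0.96, 0.66 without F 3 and 1.17 without F 1), 7 at an unadjusted p under 0.05. Igf2, insulin-like growth factor 2, was at 16.0, 14.6 and 9.95 FPKM in F and 22.7, 24.3 and 30.5 in E (0.95 ± 0.27, adjusted p = 0.191), and Mgp, a matrix protein that inhibits calcification, at 11.9, 13.5 and 8.52 FPKM in F and 28.1, 21.6 and 29.3 in E (1.22 ± 0.36, adjusted p = 0.192). The collagen gene Col3a1 differed by 1.38 ± 0.36 (adjusted p = 0.160), whereas Col6a1 differed by -0.13 ± 0.17 (adjusted p = 0.882). Their summed level was 47.3 to 73.9 FPKM in F and 96.3 to 125 in E, and 49.6 to 102 in control and 43.0 to 64.7 in RE. Endothelial markers differed less, with 21 of 26 higher (median 0.23, 0.12 without E 2, 0.11 in the 8 other libraries alone and 0.15 with quantile normalization) and 4 at an unadjusted p under 0.05, among them Abcb1a, a drug efflux pump of the blood-brain barrier (0.49 ± 0.14, adjusted p = 0.185). None of these 3 lists held a gene past the adjusted test, and the part of meninges and large vessels in the dissected tissue was not tested.

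Genes that respond to the stress hormone corticosterone did not lean one way. Of 25 glucocorticoid-induced genes, 13 lay higher and 12 lower in E (median 0.01), with 1 higher and 4 lower at an unadjusted p under 0.05, where the shares over all mRNAs were 6.27% and 4.53%. Sgk1, a kinase that this hormone induces, was at 46.3, 56.0 and 61.0 FPKM in F and 64.1, 84.7 and 74.0 in E (0.45 ± 0.19, adjusted p = 0.404), and both groups lay above control (29.7 ± 6.39 FPKM). Zbtb16, a zinc finger repressor, differed by -0.69 ± 0.24 (adjusted p = 0.300) and the metallothionein Mt1 by 0.20 ± 0.23 (adjusted p = 0.854). Of 18 clock genes, 13 lay lower in E (median -0.09, from -0.15 without F 1 to -0.03 without F 3) and 4 had an unadjusted p under 0.05. They included Bhlhe40, a repressor that activity also induces, at 37.4, 38.4 and 41.0 FPKM in F and 27.3, 28.9 and 22.8 in E (-0.57 ± 0.16, adjusted p = 0.190), while the clock output gene Dbp differed by -0.09 ± 0.21 (adjusted p = 0.940).

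Receptors, transmitters and kinases that earlier work ties to extinction formed a list of 26 tested genes, of which 9 lay higher and 17 lower (median -0.09), with 2 higher and 7 lower at an unadjusted p under 0.05 (6.27% and 4.53% of all mRNAs). Cckbr, the brain receptor for cholecystokinin, was at 24.6, 21.4 and 19.3 FPKM in F and 12.97, 15.1 and 13.7 in E (-0.64 ± 0.18, adjusted p = 0.189), and its ligand Cck lay lower too, as given above. Grin2a, a subunit of the NMDA receptor, differed by -0.32 ± 0.10 (adjusted p = 0.226), and Nr3c2, the mineralocorticoid receptor, by 0.35 ± 0.10 (adjusted p = 0.189). Bdnf, Cck and Camk2a stand in this list as well as in those of neurons. None passed the adjusted test.

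Lists of general cell state differed little. Heat shock genes had a median of 0.03 over 19, cholesterol synthesis genes 0.05 over 19 and cytosolic ribosomal protein genes 0.07 over 79 (0.11 without F 1). Mitochondrially encoded genes had a median of 0.29 over 13 (0.02 without E 1, 0.65 without E 2 and 0.12 with quantile normalization) and were uneven, since mt-Co1 was at 9.76, 6832 and 7016 FPKM in E.

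For markers of more distant tissue the list medians moved with the libraries left out. Oxt, the oxytocin precursor of the hypothalamus, was at 0.472, 0 and 0.193 FPKM in F and 6.24, 5.72 and 8.42 in E, and Avp, the vasopressin precursor, at 6.83, 0.315 and 0.877 FPKM in F and 16.7, 7.43 and 27.3 in E. Neither passed (adjusted p = 0.198 and 0.423), and for Avp E 2 lay close to F 1. Over 12 hypothalamic markers the median was 0.31, which ran from 0.00 without F 3 to 0.73 without F 1 and moved by over 1.5 times without each of the other E and F libraries as well. Of these markers 7 lay higher in E and 5 lower. At an unadjusted p under 0.05, 4 were higher and 0 lower, where 6.27% and 4.53% of all mRNAs were. All E libraries lay above all F libraries for 4, against 11.4% of all mRNAs. In the 8 other libraries alone 12 lay higher, with a median of 0.59. Thalamic markers had a median of 0.02 over 7, hippocampal markers 0.14 over 5 (0.05 without F 2 and 0.26 without F 1) and blood genes -0.12 over 5. The sign of the blood and thalamic medians, and of those of glucocorticoid-induced, heat shock, cholesterol synthesis and oligodendrocyte precursor genes, turned with single libraries left out. Choroid plexus markers had a median of 0.38 over 6, which was -0.10 without F 3, 0.85 without F 1 and 0.60 without E 1, and Ttr, their most abundant gene, was at 45.8, 3.08 and 2.87 FPKM in F and 7.04, 55.0 and 14.2 in E, with overlap.

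For lncRNA (transcripts that encode no protein) 9408 transcripts were tested. At the study's thresholds 248 were higher (2.64%) and 169 lower (1.8%) in E, against 189 and 207 with levels shifted to a common median. With limma 0 passed after adjustment, and 620 had an unadjusted p under 0.05. The 8 transcripts named by the rule were chosen to have no overlap between the groups. NR_003513, a transcript of 3177 bases from the nuclear lncRNA gene Neat1, was at 11.4, 10.0 and 11.8 FPKM in F and 21.0, 29.3 and 20.3 in E (1.06 ± 0.17, adjusted p = 0.123), and control lay between at 17.2 ± 1.65 FPKM. TCONS_00017655, an intergenic transcript of chromosome 2, was at 0.797, 0.647 and 0.828 FPKM in F and 2.31, 2.61 and 2.31 in E (1.55 ± 0.22, adjusted p = 0.123).

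A pair of the higher transcripts came from 1 locus. AK081909 (chr16:72158946-72160238) was at 2.72, 3.00 and 2.49 FPKM in F and 7.51, 7.93 and 9.45 in E and AK138478 (chr16:72164711-72167451) at 2.30, 1.58 and 2.08 FPKM in F and 6.77, 7.06 and 5.73 in E, both with an adjusted p of 0.123. The tables list both as intergenic, and both lie within the span of Robo1, an axon guidance receptor (chr16:72027518-73047491, RefSeq GRCm38.p6). Robo1 mRNA was at 10.3, 10.1 and 10.3 FPKM in F and 14.4, 14.5 and 14.7 in E (log2 difference 0.50, adjusted p = 0.0891), so all 3 features lay higher in every E library. Reads of the transcripts and of unspliced Robo1 RNA cannot be told apart in these tables.

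On the lower side 2_00021360, which overlaps an exon of Plekhf2 in sense, was at 2.95, 2.87 and 3.05 FPKM in F and 0.895, 0.742 and 0.442 in E (-1.99 ± 0.34, adjusted p = 0.163). NR_028353, a transcript of Nt5c2, was at 4.76, 2.93 and 4.44 FPKM in F and 0.569, 1.02 and 1.45 in E (-1.95 ± 0.36, adjusted p = 0.206). NR_033306, a transcript of Ndufs6, was at 3.45, 2.33 and 2.61 FPKM in F and close to 0 in every E library, and RE 3 was close to 0 as well. Its adjusted p was 0.206, and 0.0103 with replicate number as a block. Such values near 0 can be a failed split between transcripts of 1 gene. ENSMUST00000174039, from 1110038B12Rik, was at 0.584, 0.858 and 0.828 FPKM in F and at 0.105 in E 2, near 0 in the other E libraries. The first 3 of these overlap an exon of a coding gene in sense, so their levels are uncertain.

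Circular RNAs are formed when a splice donor joins an acceptor upstream of it, and are counted by the reads that cross this back-splice junction. Libraries held 9530 to 18851 such reads in F and 7324 to 18438 in E, or 911 ± 73.9 and 1014 ± 124 per 1000000 mRNA fragments (SD, n = 3 each, exact two-sided permutation test p = 0.3, where 0.1 is the smallest p this design allows). Of the 3241 circRNAs with a total of at least 10 reads, 66 were higher (2.04%) and 88 lower (2.72%) in E at the study's thresholds with edgeR, and 101 and 60 with library sizes from mRNA fragments, which moved the median difference over all circRNAs from -0.03 to 0.16. None passed the adjusted test with edgeR, where 154 had an unadjusted p under 0.05 (the same 66 and 88), or with DESeq2, where 60 did. Of the 3241 tested, both counts are a smaller share than the 0.05 that this threshold passes where no circRNA differs. The junctions of 3 of the named circles and of the most abundant one are shown, 25 bases on each side, with the end of the circle in lower case and its start, which follows it across the back-splice, in capitals. They are circ Inpp4b (chr8:82068932-82071835, plus strand), circ Memo1 (chr17:74241905-74258505, minus strand), circ Aff2 (chrX:69544409-69545269, plus strand) and the circle listed under Cdr1 (chrX:61183248-61186174, plus strand), all read from the RefSeq GRCm38.p6 genome.
circ Inpp4b: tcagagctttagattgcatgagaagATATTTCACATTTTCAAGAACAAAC
circ Memo1: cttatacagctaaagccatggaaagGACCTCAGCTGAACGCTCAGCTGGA
circ Aff2: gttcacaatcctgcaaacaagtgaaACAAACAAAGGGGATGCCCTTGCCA
circ Cdr1: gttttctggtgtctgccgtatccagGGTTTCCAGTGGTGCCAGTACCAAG
In all 9 circles read in this way the genome has AG before the first base and GT after the last, the letters of a splice acceptor and a splice donor.

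Single circles had few reads. The named circles were chosen on these same reads, so their ratios and intervals are no separate test of a difference. The intervals pool the reads of a group and leave out the spread between mice. Circ Aff2, from a gene of a transcription elongation scaffold, had 28, 13 and 11 reads in F and 6, 8 and 7 in E, a ratio of 0.401 per read of the library (95% interval 0.229 to 0.678 for counting error only, exact binomial). Circ Memo1 had 8, 3 and 6 reads in F and 0, 0 and 1 in E, a ratio of 0.0584 (0.0014 to 0.373). Its host mRNA, which encodes a protein that binds the receptor ErbB2, differed by -0.03 ± 0.15. Circ Ntng2, from the gene of the adhesion protein netrin-G2, had 6, 7 and 3 reads in F and 0, 0 and 1 in E, a ratio of 0.0621 (0.00148 to 0.4), and its host mRNA was also lower without passing (-0.65 ± 0.15, adjusted p = 0.117). Circ R3hdm1 had 8, 8 and 6 reads in F and 0, 4 and 2 in E, a ratio of 0.271 (0.0898 to 0.689). These 4 circles were chosen to lie lower in every E library, and for each of them the fit gave an adjusted p of 0.918 (edgeR).

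On the higher side circ Inpp4b, from a phosphoinositide phosphatase gene, had 1, 0 and 0 reads in F and 5, 9 and 2 in E, a ratio of 15.9 with an interval of 2.47 to 666. Circ Esco1, from a gene of sister chromatid cohesion, had 1, 0 and 3 reads in F and 4, 14 and 8 in E, a ratio of 6.46 (2.24 to 25.5). Circ Smyd4 had 0, 1 and 1 reads in F and 2, 8 and 8 in E (8.94, 2.14 to 79.4), and circ Mpzl1 0, 1 and 1 and 1, 6 and 9 (7.95, 1.87 to 71.2). Their adjusted p was 0.918 too, and their host mRNAs differed by 0.17 to 0.26 on the log2 scale. Among the 20 circles with the most reads, differences ran from -0.48 to 0.35. The circle listed under Cdr1, a sponge for the microRNA miR-7 that is abundant in brain, held 8211 reads in the series, 637, 488 and 566 in F and 243, 789 and 497 in E, and differed by -0.26 ± 0.21 (adjusted p = 0.944, edgeR). Circ Tulp4, the next, differed by -0.08 ± 0.23.

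**Figure D5:**
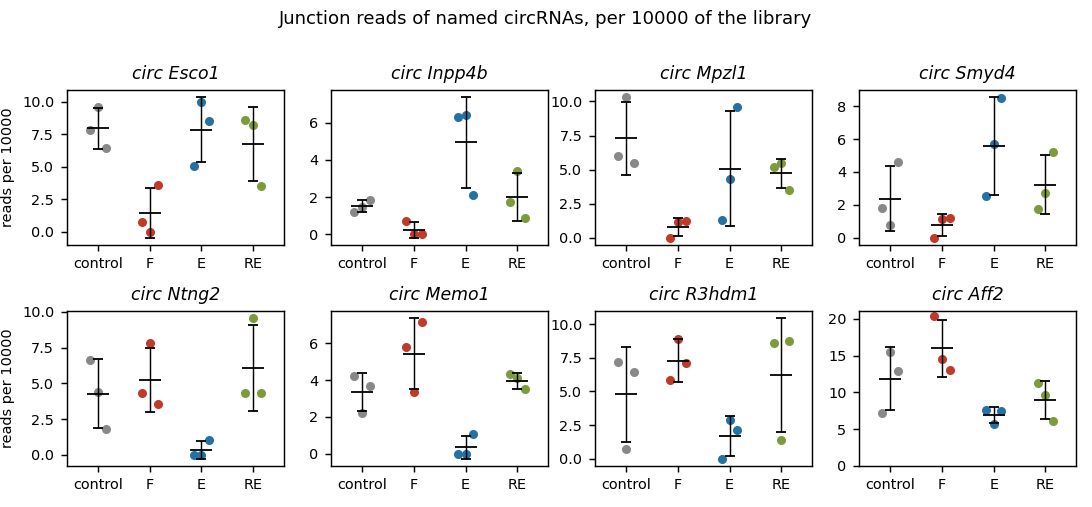
Back-splice junction reads per 10000 of the library (vertical axes) of the 8 circRNAs named by the rule, in each library of control, F, E and RE. Points are libraries, the long bar is the mean and the whiskers are 1 SD. In E, circ Memo1 and circ Ntng2 have 0 reads in libraries 1 and 2, and circ Aff2 lies below every F library in all 3.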

How the data were processed

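RNA of the basolateral amygdala of 12 mice was measured, 3 in each of 4 groups, after ribosomal RNA depletion with directional paired-end libraries. Per the study's methods, the authors trimmed with cutadapt, aligned to mouse mm10 with HISAT2 and computed levels with cuffdiff, per gene for mRNA and per transcript for lncRNA, and found circRNAs with STAR, DCC and circBase. CASAVA 1.8, BWA and the human build hg19 are named in the submitters' processing notes, whereas the coordinates in the tables are mouse. The authors deposited FPKM values, beside them an estimated count per library that is already scaled by a library factor, and for circRNA a raw count of junction reads per library with a log2 CPM value, which was not used. Columns with the authors' own fold changes and p-values were not used. MicroRNA was not analysed here.

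Levels were tested as log2(FPKM + 0.1) with limma 3.58.1 in R 4.3.3 (empirical Bayes with a mean trend), all 12 libraries in 1 fit and the contrast E minus F, over 13517 mRNAs with a mean of at least 0.5 FPKM and 9408 lncRNA transcripts at 0.1 FPKM or more on average. Junction reads were tested with edgeR 4.0.16 (quasi-likelihood, TMM factors), over 3241 circRNAs with at least 10 reads, with DESeq2 1.42.0 as an alternative. P-values are two-sided and adjusted by Benjamini-Hochberg within each class. Fragments recovered from the estimated counts were whole within 0.05 for 85.51 to 90.6% of mRNA values per library and were rounded for edgeR. Intervals of ratios of junction reads (95%, exact binomial, scipy 1.17.1) and floors of 3 fragments cover counting error only. Named features had an adjusted p under 0.05, no overlap between the groups and a group mean of 1 FPKM or more (lncRNA 0.5 FPKM, circRNA 5 reads), up to 10 each way for mRNA and 4 for the other classes. Free places went to features that met the study's thresholds, by the smallest p, under the same conditions of level and no overlap. From each list up to 4 members past the test were named, or the 3 of the highest level, and the study's hub genes for F against E and RE. Further list members given as examples, Robo1 and the abundant circRNAs were chosen after their values were seen. The comparison and the 30 lists were chosen with earlier results of these data known. Alternatives changed 1 choice at a time, except that edgeR on recovered fragments changed the values, their scaling and the test together. They were a pseudocount of 1, other minimums, median shift, quantile normalization, E and F alone, a block for replicate number, robust fits, a term marking the 4 distinct libraries, the other 8 alone, edgeR on those fragments, other library sizes and size factors, and each library left out. The tests were checked on simulated data. Promoters came from RefSeq (GRCm38.p6). Tables and plots were made with Python 3.11.15, numpy 2.4.6, pandas 2.3.3 and matplotlib 3.10.9.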

Additional observations from a re-analysis of the deposited data

How the results depend on the processing

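Of mRNAs past the adjusted test (11 with limma), 90 were called with edgeR on recovered fragments, 129 with the term for the 4 distinct libraries, 32 with levels shifted to a common median, 29 with quantile normalization, 17 with a pseudocount of 1, 4 with E and F fitted alone, 3 with no filter and 0 in the 8 other libraries alone. Leaving out 1 library gave 0 to 34. By the study's thresholds, mRNAs higher and lower were 239 and 123 with no filter and 46 and 22 with a pseudocount of 1, and 89 were higher with a minimum of 1 FPKM. For lncRNA (0 past the adjusted test) 16 passed in the 8 libraries alone, 12 with no filter, 7 with a minimum of 1 FPKM and 2 with E and F alone, and 0 to 8 with 1 library left out. At the study's thresholds 47 lncRNAs were higher and 33 lower with a minimum of 1 FPKM, and 42 and 32 with a pseudocount of 1. CircRNAs higher and lower were 27 and 33 with DESeq2, 24 and 26 with a minimum of 30 reads, 101 and 60 with library sizes from mRNA fragments, and 43 higher in the 8 libraries alone. Leaving out 1 library gave 44 to 67 higher and 55 (without E 1) to 102 lower, and no circRNA passed the adjusted test under any of these settings. In the replicate block 0 mRNAs and 1 lncRNA passed, and 30 circRNAs were higher and 44 lower. Deviations of same-numbered E and F libraries correlated at -0.107, -0.217 and 0.03 for mRNA and at -0.123, -0.166 and 0.098 for lncRNA. The distinct libraries E 2 and F 1 correlated at 0.224 and 0.265. With so few libraries in a group, these values cannot tell whether same-numbered libraries were paired or shared a batch. Single named features reversed under none of the alternatives run. Those chosen to have no overlap between the groups could hardly do so with a library left out. Of 510 list medians, 496 were counted as unmoved, among them that of choroid plexus markers, 0.385 in the main fit and -0.101 without F 3. Robust fits and the replicate block leave every list median as it was, so part of this count was fixed beforehand. edgeR on lncRNA fragments was not run, since 64.62 to 68.66% of these values were whole. E 1 was the shallowest library, and the named circles had few reads, which limits what could be detected. The cause of these differences between settings was not tested.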

Other observations

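Genes of cholinergic neurons, a list put together after the rise of Lhx8 had been seen and therefore given with no test, lay higher in E. Of 10 such genes measured, 10 lay higher (median 2.42 on the log2(FPKM + 0.1) scale), and for 9 all E libraries lay above all F libraries, as they did for 11.4% of all mRNAs tested. Chat, the enzyme that makes acetylcholine, was at 0.0786, 0.835 and 1.62 FPKM in F 1, 2 and 3 and at 4.04, 4.71 and 4.04 in E, and at 2.80, 2.29 and 1.38 in control. Slc5a7, the choline transporter, was at 0.214, 1.04 and 2.13 FPKM in F and 6.75, 5.59 and 4.49 in E. Ngfr, the low-affinity neurotrophin receptor of basal forebrain cholinergic neurons, was at 0.231, 0.510 and 0.682 FPKM in F and 2.88, 3.38 and 2.79 in E. F 1 was the lowest library for Chat, Slc5a7 and Ngfr, as it was for the striatal markers Pde10a and Ppp1r1b. Lhx8 itself is counted among the 10, as is Isl1, given above in the central amygdala list, so the counts are not independent of what had been seen. Ache, which degrades acetylcholine and is not specific to these neurons, was at 19.5, 13.7 and 13.5 FPKM in F and 19.96, 26.3 and 16.9 in E, and its groups overlapped.

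Thalamic markers had no common direction. Of 7 tested, 4 lay higher in E and 3 lower, with 3 higher and 1 lower at an unadjusted p under 0.05 (limma). Among the higher ones, Zic1, a zinc finger factor, differed by 1.47 ± 0.35 (SE, adjusted p = 0.124 with limma). Tcf7l2, a Wnt pathway factor, differed by 0.77 ± 0.18 (adjusted p = 0.124 with limma). With edgeR on recovered fragments both passed, at an adjusted p of 0.0191 for Zic1 and 0.0277 for Tcf7l2. With limma and the term for the 4 distinct libraries neither passed, at 0.0691 for Zic1 and 0.0737 for Tcf7l2.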
